A study of Mus musculus with 9 samples.

Results

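The sterol and fatty acid synthesis genes are 34 mouse genes of the mevalonate and cholesterol pathway, its regulators and the pathway that builds fatty acids from acetyl-CoA. They were chosen by name as genes of these pathways, and every probe set annotated to exactly 1 of the 34 symbols was taken. Of the 34 genes, 33 had such a probe set, and all 33 passed the filter on dim values, among 13830 genes tested in all. Acat2, the cytosolic acetoacetyl-CoA thiolase, had no probe set of its own in the annotation used. The 33 genes were read by 76 probe sets, of which 71 were tested, among 29307 tested probe sets. Members had between 1 and 5 tested probe sets, with 1 each for 12 members.

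RNA was measured on Affymetrix mouse expression arrays, 1 array for each of 9 male mice aged 6 to 8 weeks. Mutant jejunum (n = 3) came from Gata4loxP/-VilCre mice, in which a loxP-flanked copy of Gata4 faces a null copy. Control ileum (n = 3) and control jejunum (n = 3) came from separate Gata4loxP/+VilCre mice, in which the loxP-flanked copy faces a wild-type copy. The jejunal samples lay 10 cm below the pyloric sphincter, and the ileal samples lay 1 cm above the cecum. All 9 mice carried the Cre transgene, so the loxP-flanked copy met Cre in controls as well. The villin promoter drives this Cre in the intestinal epithelium and not in muscle, nerve or immune cells of the wall. The RNA is bulk RNA of a gut segment, in which fewer cells of a type and less RNA per cell cannot be told apart.

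Cholesterol is built from acetyl-CoA through mevalonate, the isoprenoid farnesyl diphosphate, squalene and lanosterol. The SREBP transcription factors drive the enzymes of this route. When sterols are plentiful, the escort protein Scap and the anchor proteins Insig1 and Insig2 hold SREBP in the endoplasmic reticulum, and when sterols run low the factor is cut and enters the nucleus. SREBP-2, the product of Srebf2, favours cholesterol genes, and SREBP-1c, a product of Srebf1, favours fatty acid genes. The small intestine makes cholesterol beside absorbing it, and bile acid uptake, which lets the body recycle cholesterol-derived bile acids, is a task of the ileum. GATA4 is a zinc finger factor of the proximal small intestine.

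Promoter windows show the letters in front of the members. RefSeq windows on GRCm38.p6, from 250 bases before to 50 bases after the annotated start, were at hand for 28 members, in 37 windows. Both strands were searched. The first motif was TCACNCCA, a sterol regulatory element (SRE) pattern. The second was CCAAT, the box bound by the NF-Y factor that works beside SREBP. The third was GGGCGG, the box bound by Sp1. The fourth was AGATAA, a motif of GATA factors, and no motif searched holds another of them. The SRE pattern was in 3 of 37 member windows (8.11%), against 4.36% of all 32851 windows. CCAAT was in 24 of 37 member windows (64.9%), against 37.4% of all windows, and GGGCGG was in 27 of 37 (73.0%), against 35.7%. AGATAA was in 1 of 37 (2.7%), in a window of Insig2, against 11.2% of all windows. Several windows of 1 gene overlap, so windows are not independent, and a match is a description of letters, not a binding site.

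The following stretches are shown because Hmgcs1 and Srebf2 hold the SRE pattern and the other members shown, 3 of which rose in the mutant, hold CCAAT near the start. CCAAT is no mark of the members that rose. It was in 23 of the 28 members with a window, among them Ebp, Sc5d and Dhcr7, called in neither comparison with control jejunum. Capitals mark TCACNCCA and CCAAT on either strand, so that ATTGG is the CCAAT box read from the other strand. Hmgcs1, whose SRE pattern begins 137 bases before the start, is shown at chr13:119690171-119690350, plus strand.
Hmgcs1: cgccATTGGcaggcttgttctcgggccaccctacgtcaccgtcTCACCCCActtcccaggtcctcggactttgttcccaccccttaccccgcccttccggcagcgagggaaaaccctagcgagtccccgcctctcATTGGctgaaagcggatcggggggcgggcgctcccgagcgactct
Srebf2, whose SRE pattern begins 162 bases before the start and is followed by CCAAT at 135, is shown at chr15:82147089-82147268, plus strand.
Srebf2: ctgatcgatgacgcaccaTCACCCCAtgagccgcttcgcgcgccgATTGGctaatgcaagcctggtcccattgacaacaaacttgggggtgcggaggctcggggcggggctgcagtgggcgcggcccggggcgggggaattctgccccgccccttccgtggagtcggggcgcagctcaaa
Nsdhl, with CCAAT boxes at 109 and 20 bases before the start, is shown at chrX:72918401-72918520, plus strand.
Nsdhl: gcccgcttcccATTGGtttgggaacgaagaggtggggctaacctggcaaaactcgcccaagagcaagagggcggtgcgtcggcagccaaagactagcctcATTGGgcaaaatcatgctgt
Idi1, with CCAAT boxes at 45 and 14 bases before the start, is shown at chr13:8885506-8885605, plus strand.
Idi1: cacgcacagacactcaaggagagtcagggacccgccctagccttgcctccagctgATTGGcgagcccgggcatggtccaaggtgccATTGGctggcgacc
Cyp51, with a CCAAT box at 29 bases before the start, is shown at chr5:4104698-4104797, minus strand.
Cyp51: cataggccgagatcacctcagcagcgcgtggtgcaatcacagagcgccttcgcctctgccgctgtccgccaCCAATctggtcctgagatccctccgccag
Tm7sf2, with a CCAAT box at 47 bases before the start, is shown at chr19:6067851-6067950, minus strand.
Tm7sf2: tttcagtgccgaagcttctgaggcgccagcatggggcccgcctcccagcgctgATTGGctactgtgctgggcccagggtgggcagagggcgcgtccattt

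**Figure D1:**
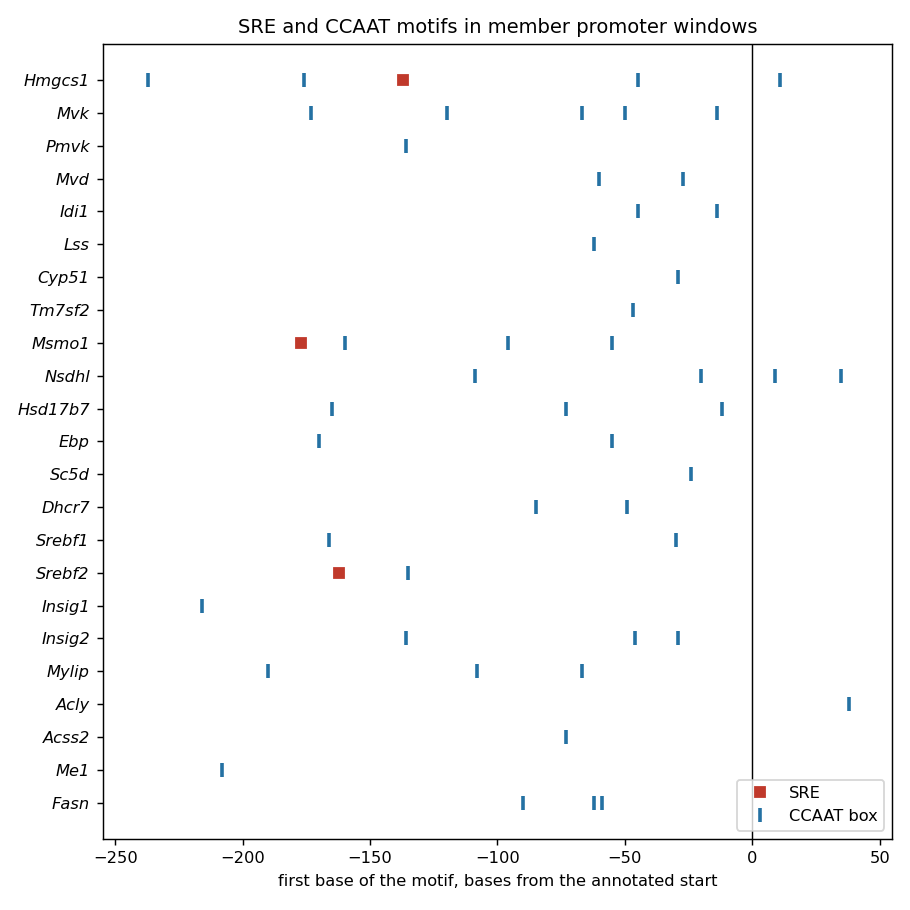
Positions of the SRE pattern (squares) and of CCAAT (bars) in RefSeq promoter windows of members that hold either, by gene down the page, with the first base of each match in bases from the annotated start across. Matches of all windows of a gene share its line; the SRE pattern stands at 137, 162 and 177 bases before the start of Hmgcs1, Srebf2 and Msmo1.

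The arrays were checked against their labels before the members were read. Fabp6, the ileal bile acid binding protein, stood at 13.90 on each of the 3 mutant jejunum arrays, at 13.70, 13.85 and 13.65 in control ileum, and at 4.86, 4.64 and 5.02 in control jejunum. All levels are log2(intensity + 16) after quantile normalisation. That step gives probe sets of equal rank the same level, so the identical mutant values of Fabp6 show equal rank and not equal intensity. Lct, the lactase of the proximal gut, stood at 10.52, 7.84 and 8.20 in mutant jejunum, at 4.85, 5.10 and 4.45 in control ileum, and at 12.74, 12.98 and 13.15 in control jejunum. Gata4 itself, read by its brighter probe set, stood at 9.61, 9.51 and 9.38 in mutant jejunum, at 5.64, 5.30 and 5.20 in control ileum, and at 9.57, 9.49 and 9.52 in control jejunum. No label or file says whether it reads the part that Cre removes, so this level is no check of the deletion. Mean intensity after trimming 2% at each end was 147 to 180 in mutant jejunum, 96.8 to 122 in control ileum and 150 to 172 in control jejunum, so that low brightness and ileum cannot be told apart. Quantile normalisation removes that difference. Overlap between groups is described throughout on the normalised levels. Before scaling, mutant jejunum and ileum arrays overlapped in Hmgcs1, Idi1, Srebf2, Fdft1, Sqle, Cyp51, Tm7sf2, Nsdhl, Scd2, Acly, Lss, Msmo1, Scap, Stard4 and Acss2. Mutant and control jejunum arrays then overlapped in Hmgcs1, Idi1, Mvd and Scap. Ileum and control jejunum arrays then overlapped in Hmgcs1, Mvd, Scap, Acly and Acaca, among the members called there. Mutant jejunum 3 stood apart from the other arrays on the second principal component.

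In mutant jejunum, 7 of the 33 measured members rose relative to control jejunum and none fell. A call is an adjusted p under 0.05 in limma. The genes that rose were Fdps, Sqle, Cyp51, Tm7sf2 and Nsdhl of cholesterol synthesis, Mylip, an E3 ligase for lipoprotein receptors, and Scd2, a stearoyl-CoA desaturase. Over all 13830 genes, 2.1% rose and 2.29% fell. At an unadjusted p under 0.05, 16 members were higher and 1 was lower, where 1221 of all 13830 genes were higher and 1309 lower. The median log2 difference was 0.50 over the members and 0.00 over all tested genes. The count of 7 fell to 2 without control jejunum 2 (Sqle and Scd2) and to 3 without mutant jejunum 2 (Sqle, Mylip and Scd2), and was 13 with array weights. Over all genes, 290 rose in the main fit and 129 without control jejunum 2. Without mutant jejunum 2 it was 121 of all genes, and with array weights 529.

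In control ileum, 19 of the 33 members rose relative to control jejunum and none fell, where 8.79% of all genes rose and 9.12% fell. At an unadjusted p under 0.05, 25 members were higher and none was lower, where 2303 of all 13830 genes were higher and 2179 lower. The median log2 difference was 0.83 over the members and 0.03 over all tested genes. With no scaling between arrays, 13 members rose and 3 fell (Ebp, Srebf1 and Elovl6), where the median of all genes moved to -0.42.

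In mutant jejunum relative to control ileum, 4 members fell (Pmvk, Fdft1, Sqle and Scd2) and none rose, where 1.7% of all genes fell and 1.97% rose. At an unadjusted p under 0.05, 20 members were lower and 1 was higher, where 1334 of all 13830 genes were lower and 1297 higher. The median log2 difference over the members was -0.44, against -0.02 over all tested genes, and turned to 0.10 with no scaling between arrays, where the median of all genes was 0.44 and 1 member fell and 3 rose. The count of 4 fell to 0 when the 2 groups were fitted alone or without mutant jejunum 1, and to 1 without control ileum 1 or with arrays centred on their medians. It was 2 with the replicate block, with no intensity trend, without mutant jejunum 3, without control ileum 2 or without control ileum 3. Over all genes, 235 fell in the main fit, 108 with the 2 groups alone and 52 without mutant jejunum 1. The all-gene count was 101 without control ileum 1 and 159 with median centring. In the fits with 2 members it was 213, 178, 317, 51 and 181, in the order named. The 3 comparisons share arrays, since each group enters 2 of them.

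**Figure D2:**
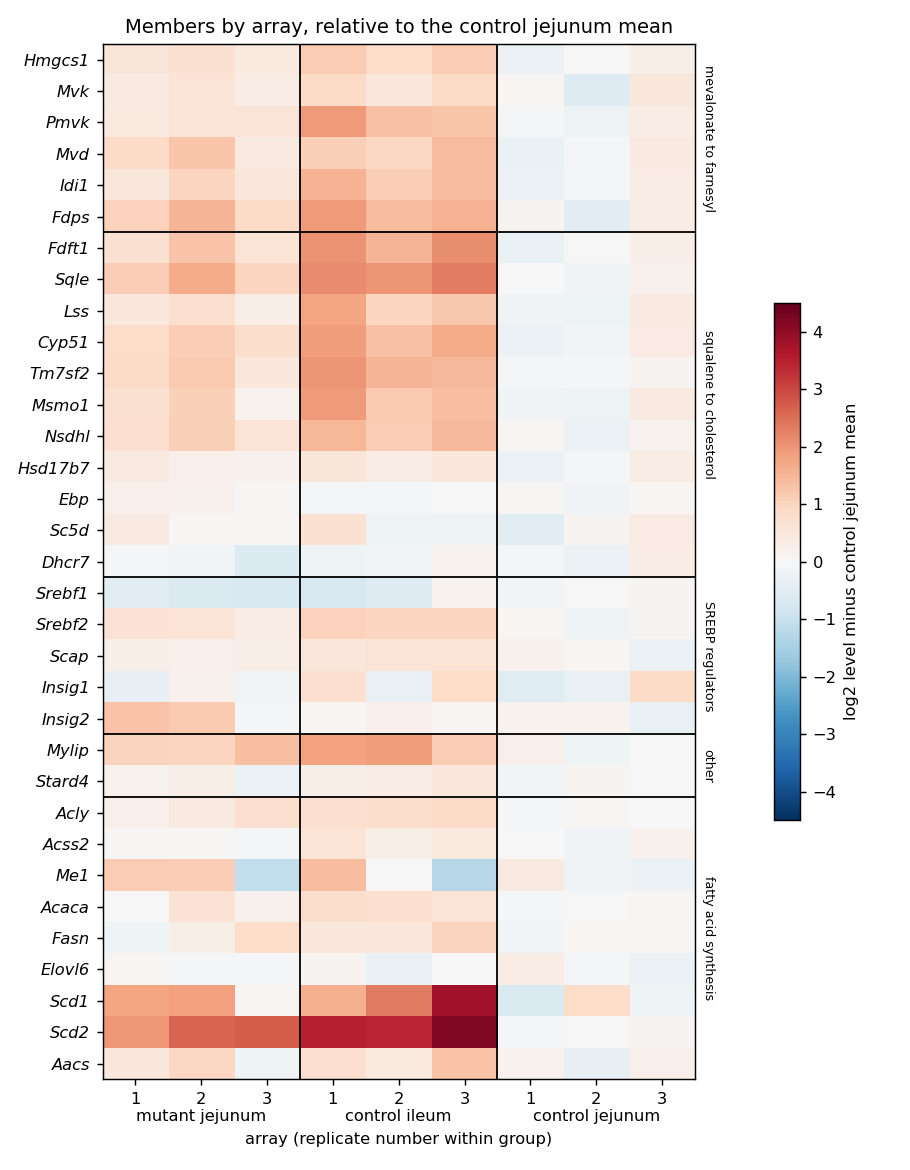
Level of each of the 33 measured members (rows, by pathway step) on each of the 9 arrays (columns) as log2 level minus the control jejunum mean. Red is above and blue below that mean; the genes from Fdft1 down to Nsdhl, and Scd2, lie above it on every mutant jejunum and ileum array, while Ebp, Sc5d, Dhcr7 and Elovl6 lie on either side of it.

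The early steps lead from acetyl-CoA to farnesyl diphosphate. Of 6 measured early genes, 1 rose in mutant jejunum and 5 rose in control ileum, each relative to control jejunum, and 1 was lower in mutant jejunum than in control ileum. Fdps, the farnesyl diphosphate synthase, had 10.69, 11.18 and 10.52 in mutant jejunum, 11.59, 11.10 and 11.24 in control ileum, and 9.80, 9.18 and 10.02 in control jejunum. Every mutant jejunum and every ileum array lay above every control jejunum array, while the mutant jejunum and ileum arrays overlapped. Fdps was 2.19-fold higher in mutant jejunum than in control jejunum (log2 difference 1.13, 95% confidence interval 0.63 to 1.63, adjusted p = 0.0222). Leaving out mutant jejunum 2 raised the adjusted p to 0.0919, and leaving out control jejunum 2 raised it to 0.0771. In control ileum Fdps was 3.13-fold higher than in control jejunum (log2 difference 1.65, adjusted p = 0.000795). Mutant jejunum and control ileum differed by -0.52 (adjusted p = 0.294), with an interval of -1.02 to -0.01.

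Hmgcs1, the cytosolic HMG-CoA synthase, had 11.88, 12.05 and 11.79 in mutant jejunum, 12.49, 12.18 and 12.48 in control ileum, and 11.09, 11.34 and 11.62 in control jejunum. The 3 groups did not overlap, and mutant jejunum lay between the others. The ileum was higher than control jejunum (log2 difference 1.04, adjusted p = 0.000722, and 0.0534 with no scaling), while the mutant difference did not pass (0.56, 0.25 to 0.87, adjusted p = 0.057). Of the 5 Hmgcs1 probe sets, the dimmest was not called in ileum. Pmvk, the phosphomevalonate kinase, had 7.62, 7.78 and 7.78 in mutant jejunum, 9.10, 8.51 and 8.45 in control ileum, and 7.10, 6.95 and 7.53 in control jejunum. Pmvk was higher in ileum than in control jejunum (1.49, adjusted p = 0.000625) and lower in mutant jejunum than in ileum (-0.96, adjusted p = 0.0306). That call against ileum was lost in 8 of 21 alternatives, such as the fit with no scaling (-0.43, adjusted p = 0.11). The mutant difference from control jejunum did not pass (0.54, 0.10 to 0.97, adjusted p = 0.198).

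Idi1, the isopentenyl diphosphate isomerase, had 9.97, 10.44 and 9.98 in mutant jejunum, 11.01, 10.56 and 10.84 in control ileum, and 9.21, 9.37 and 9.79 in control jejunum. Its ileal difference was 1.35 (adjusted p = 0.00074) and its mutant difference 0.67 (adjusted p = 0.0778), with no overlap among the 3 groups. Mvd, the mevalonate diphosphate decarboxylase, had 8.01, 8.40 and 7.55 in mutant jejunum, 8.22, 8.07 and 8.56 in control ileum, and 6.85, 7.04 and 7.54 in control jejunum. The lowest mutant array stood only just above the highest control jejunum array for Mvd, and the mutant arrays overlapped the ileum arrays. Mvd rose in ileum (1.14, adjusted p = 0.00854, and 0.08 with no scaling), and its mutant difference was 0.84 (adjusted p = 0.0873). Mvk, the mevalonate kinase, was not called by its brighter probe set in either comparison with control jejunum (0.45, adjusted p = 0.375 in mutant jejunum, and 0.74, adjusted p = 0.0584 in ileum), and a dimmer probe set was called in ileum (1.55, adjusted p = 0.00636).

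The sterol steps begin where farnesyl diphosphate is committed to squalene. Of 11 measured sterol genes, 4 rose in mutant jejunum and 7 in control ileum, each relative to control jejunum, and 2 were lower in mutant jejunum than in control ileum. Fdft1, the squalene synthase, had 9.90, 10.48 and 9.83 in mutant jejunum, 11.24, 10.74 and 11.31 in control ileum, and 8.93, 9.19 and 9.52 in control jejunum. The groups did not overlap. Fdft1 was 3.69-fold higher in ileum than in control jejunum (1.88, adjusted p = 0.000221), and mutant jejunum lay below ileum (-1.03, -1.50 to -0.56, adjusted p = 0.0312). Its mutant difference from control jejunum was 0.85 (0.38 to 1.33) and did not pass (adjusted p = 0.0544). A second bright probe set of Fdft1 was called in the same comparisons, and 2 dim ones were called in none. The call against ileum was lost in 13 of 21 alternatives, such as median centring (adjusted p = 0.113).

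Sqle, the squalene epoxidase and a control point of the pathway, had 10.17, 10.75 and 10.05 in mutant jejunum, 11.20, 11.05 and 11.36 in control ileum, and 9.05, 8.92 and 9.25 in control jejunum. The groups did not overlap, and mutant jejunum lay between the control segments. Sqle was 2.38-fold higher in mutant jejunum than in control jejunum (log2 difference 1.25, SE 0.18, 0.86 to 1.64, adjusted p = 0.00307). It was 4.38-fold higher in control ileum than in control jejunum (2.13, SE 0.18, 1.74 to 2.52, adjusted p = 2.4e-05). Both calls held in all 21 alternatives. Mutant jejunum was 1.84-fold lower than control ileum (-0.88, -1.27 to -0.49, adjusted p = 0.0284), a call lost in 10 of 21 alternatives, such as the fit with no scaling (adjusted p = 0.395).

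Cyp51, the lanosterol demethylase, had 9.82, 10.10 and 9.79 in mutant jejunum, 10.87, 10.31 and 10.66 in control ileum, and 8.74, 8.87 and 9.35 in control jejunum. Again the groups did not overlap. The differences from control jejunum were 0.91 in mutant jejunum (0.51 to 1.32, adjusted p = 0.0228) and 1.63 in ileum (1.22 to 2.04, adjusted p = 0.000223). A second Cyp51 probe set was called in both comparisons and the dimmest in ileum alone. The mutant call was lost without mutant jejunum 2 (adjusted p = 0.1), control jejunum 1 (adjusted p = 0.069) or control jejunum 2 (adjusted p = 0.1).

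Tm7sf2, a sterol reductase of the step after Cyp51, had 8.54, 8.86 and 8.14 in mutant jejunum, 9.66, 9.20 and 9.14 in control ileum, and 7.58, 7.61 and 7.80 in control jejunum. The 3 groups were separate. It rose in mutant jejunum by 0.85 (0.42 to 1.28, adjusted p = 0.0392), a call lost in 12 of 21 alternatives, among them the fit with no filter (adjusted p = 0.0574). In ileum the difference was 1.67 (adjusted p = 0.000265). Nsdhl, a sterol dehydrogenase that takes part in removing the methyl groups at carbon 4, had 9.89, 10.21 and 9.76 in mutant jejunum, 10.64, 10.29 and 10.60 in control ileum, and 9.25, 8.90 and 9.30 in control jejunum. Nsdhl arrays of the 3 groups did not overlap either. The differences from control jejunum were 0.80 in mutant jejunum (0.45 to 1.15, adjusted p = 0.0201) and 1.36 in ileum (adjusted p = 0.000253). The mutant call was lost without mutant jejunum 2 (adjusted p = 0.0878), without control jejunum 2 (adjusted p = 0.0877) or with no scaling (adjusted p = 0.0597).

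Lss and Msmo1 rose in ileum and did not pass in the mutant. Lss, which folds squalene epoxide into lanosterol, had 7.65, 7.88 and 7.47 in mutant jejunum, 8.96, 8.12 and 8.37 in control ileum, and 6.99, 6.94 and 7.56 in control jejunum. Its ileal difference was 1.32 (adjusted p = 0.00338) and its mutant difference 0.50 (-0.01 to 1.01, adjusted p = 0.308), with mutant jejunum 3 below the highest control jejunum array. Msmo1, the sterol methyl oxidase of the carbon 4 step, had 10.72, 11.10 and 10.16 in mutant jejunum, 11.96, 11.19 and 11.37 in control ileum, and 9.88, 9.78 and 10.41 in control jejunum. Its ileal difference was 1.48 (adjusted p = 0.00322) and its mutant difference 0.64 (0.07 to 1.21, adjusted p = 0.237). Dimmer probe sets of Lss and Msmo1 were not called in ileum.

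The last steps, where the sterol ring is finished, read here by Ebp, Sc5d and Dhcr7, did not share these values. Ebp, the sterol isomerase, had 10.34, 10.30 and 10.16 in mutant jejunum, 10.07, 10.06 and 10.08 in control ileum, and 10.18, 9.96 and 10.21 in control jejunum. Those arrays span less than the distance between groups seen for Sqle. Its difference was 0.15 in mutant jejunum (-0.09 to 0.39) and -0.04 in ileum (-0.28 to 0.19), each relative to control jejunum. Sc5d, the sterol desaturase, differed by 0.17 (-0.42 to 0.75) in mutant jejunum and by 0.07 (-0.51 to 0.65) in ileum. Dhcr7, which makes cholesterol from its 7-dehydro precursor, differed by -0.28 (-0.71 to 0.14) in mutant jejunum and by -0.06 (-0.49 to 0.36) in ileum. Neither comparison called Ebp, Sc5d or Dhcr7, and their intervals end below the estimate of 1.25 for Sqle in mutant jejunum and of 2.13 in ileum. Apart from these last steps, Hsd17b7, the ketosterol reductase, was not called by its brightest probe set (0.26, adjusted p = 0.439 in mutant jejunum, and 0.46, adjusted p = 0.0698 in ileum). A dimmer Hsd17b7 probe set was called in mutant jejunum (0.93, adjusted p = 0.0356) and in ileum (1.16, adjusted p = 0.0037), so that its probe sets disagree.

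**Figure D3:**
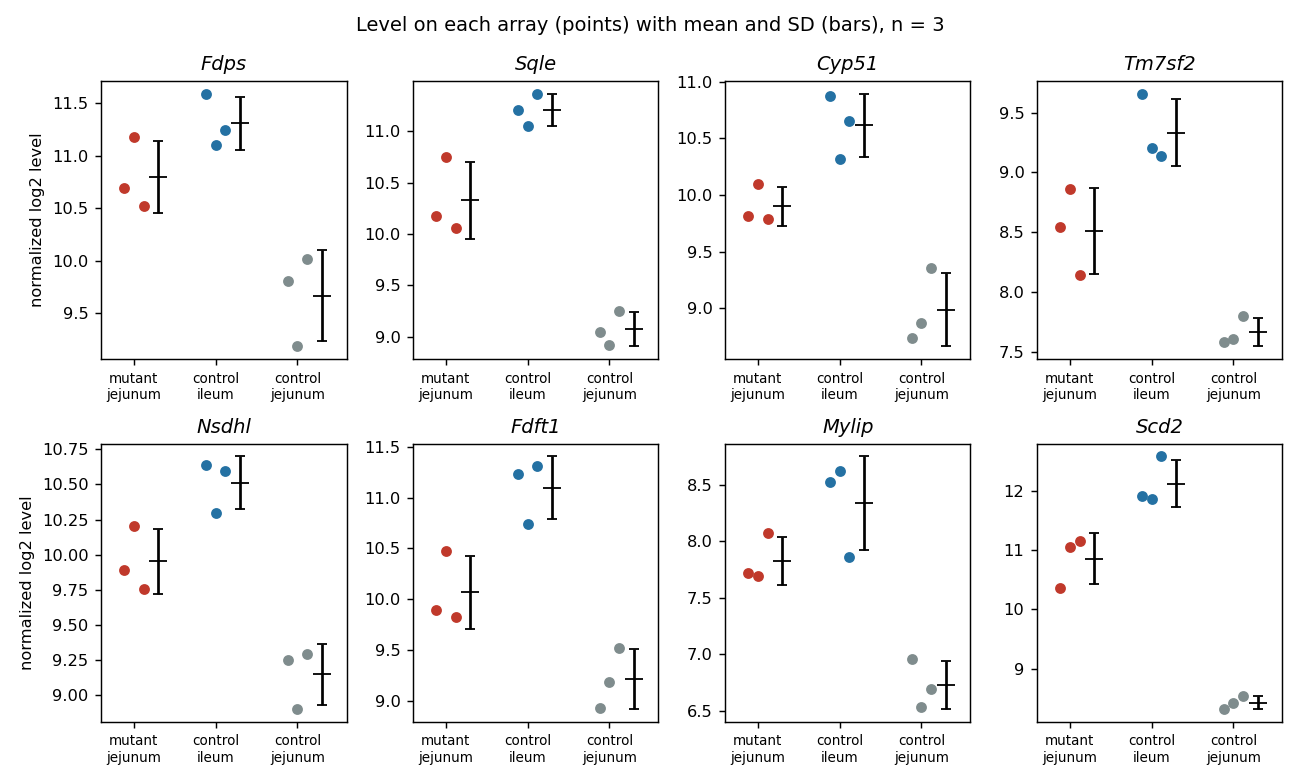
Level on each array (points) with mean and SD (bars, n = 3) of 8 members in mutant jejunum, control ileum and control jejunum, on the normalised log2 scale with a range of its own in each panel. On this scale the 3 groups are separate in Sqle, Cyp51, Tm7sf2, Nsdhl, Fdft1 and Scd2, with mutant jejunum between the control segments. In Fdps and Mylip the mutant and ileum arrays overlap. Before scaling, mutant and ileum arrays overlap in the separate genes too, as in Sqle (intensity 1052 to 2175 against 1588 to 2091).

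The arrays of a group also differed among themselves in these genes. Of the 17 early and sterol genes measured, mutant jejunum 2 was the highest mutant array in 12 and mutant jejunum 3 the lowest in 15. Their median level above the control jejunum mean was 0.53, 0.98 and 0.44 in mutant jejunum 1, 2 and 3. It was 1.55, 1.11 and 1.35 in control ileum 1, 2 and 3, and -0.15, -0.15 and 0.34 in control jejunum 1, 2 and 3. Control jejunum 3 was the highest control jejunum array in all 17 of these genes, and control ileum 2 was the lowest ileum array in 14.

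Of the 5 regulators of the pathway, limma called none in mutant jejunum (2 higher and 1 lower at an unadjusted p under 0.05), and 2 rose in ileum, each relative to control jejunum. Srebf2 had 8.62, 8.56 and 8.28 in mutant jejunum, 8.99, 8.93 and 8.93 in control ileum, and 8.03, 7.76 and 8.07 in control jejunum. The groups did not overlap. The ileal difference was 0.99 (adjusted p = 0.000745, and 0.0888 with no scaling) and the mutant difference 0.53 (0.23 to 0.83, adjusted p = 0.0593), while a second Srebf2 probe set was called in neither. Scap had 7.96, 7.92 and 7.98 in mutant jejunum, 8.20, 8.32 and 8.31 in control ileum, and 7.89, 7.76 and 7.43 in control jejunum. Scap rose in ileum by 0.58 (adjusted p = 0.0165), and its mutant difference was 0.26 (adjusted p = 0.381). The ileal call was lost in 5 of 21 alternatives: with no scaling (adjusted p = 0.734), with median centring (0.0859), without control ileum 2 (0.0582), without control jejunum 3 (0.0654) and without the 2 arrays highest in Adipoq (0.074).

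Srebf1 had 8.40, 8.28 and 8.23 in mutant jejunum, 8.18, 8.35 and 9.06 in control ileum, and 8.78, 8.92 and 9.06 in control jejunum. All 3 mutant arrays lay below the control jejunum arrays, and ileum 3 lay level with them. Its differences from control jejunum were -0.62 in mutant jejunum (-1.06 to -0.17, adjusted p = 0.139) and -0.39 in ileum (adjusted p = 0.219), and Srebf1 was called lower in each comparison in a fit without control ileum 3. The probe set reads Srebf1 as a gene, and the SREBP-1a and SREBP-1c forms were not told apart. Insig1, itself an SREBP target, spread widely in control ileum (SD 0.66) and control jejunum (SD 0.75) and less in mutant jejunum (SD 0.27). Its differences from control jejunum were -0.10 (-0.92 to 0.73) in mutant jejunum and 0.42 (-0.40 to 1.25) in ileum. Insig2 had 10.49, 10.36 and 9.13 in mutant jejunum, 9.27, 9.41 and 9.26 in control ileum, and 9.36, 9.36 and 8.85 in control jejunum. Mutant jejunum 1 and 2 stood above every other array for Insig2, while mutant jejunum 3 fell among them (difference from control jejunum 0.80, adjusted p = 0.196).

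Mylip and Stard4 handle cholesterol rather than make it. Mylip, which marks lipoprotein receptors for degradation and is a target of the sterol-activated LXR receptors, had 7.71, 7.69 and 8.07 in mutant jejunum, 8.53, 8.62 and 7.86 in control ileum, and 6.96, 6.53 and 6.69 in control jejunum. Mutant jejunum and ileum arrays overlapped, and all 6 lay above control jejunum. The differences from control jejunum were 1.10 in mutant jejunum (0.64 to 1.56, adjusted p = 0.0171) and 1.61 in ileum (1.15 to 2.07, adjusted p = 0.000556). The mutant comparison missed the threshold when control jejunum 2 (adjusted p = 0.0802) or control jejunum 3 (adjusted p = 0.0723) was left out. Stard4, a cytosolic sterol carrier, was not called by its brightest probe set (0.05 in mutant jejunum, -0.26 to 0.36, and 0.37 in ileum, adjusted p = 0.0946), and another of its probe sets was called in ileum (0.78, adjusted p = 0.00811).

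**Figure D4:**
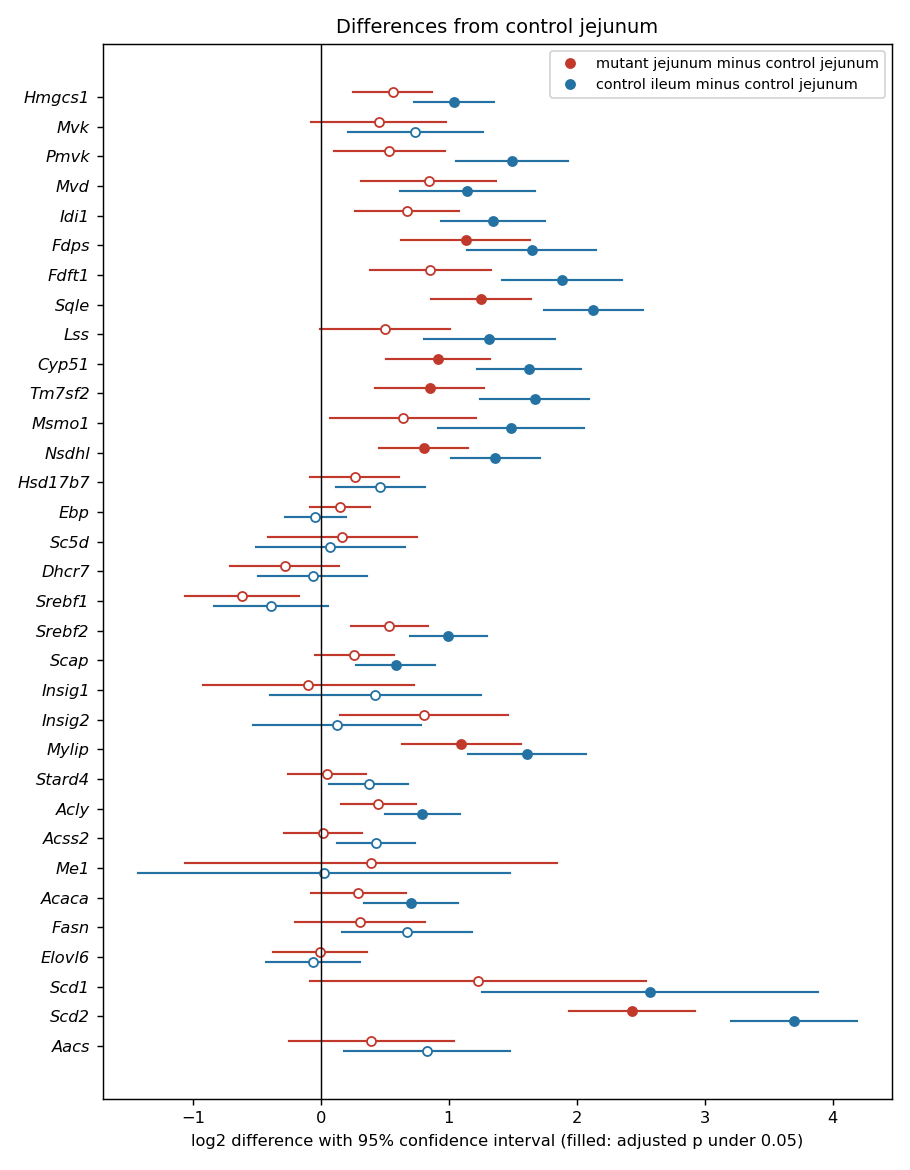
Log2 difference from control jejunum of each measured member, for mutant jejunum (red) and control ileum (blue), with 95% confidence intervals of the limma fit and filled points where the adjusted p is under 0.05. The largest differences are those of Scd2, at 2.43 in mutant jejunum and 3.69 in control ileum; Ebp, Sc5d, Dhcr7 and Elovl6 lie between -0.28 and 0.17.

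Of the 9 fatty acid genes, 1 rose in mutant jejunum and 4 in control ileum, each relative to control jejunum, and 1 was lower in mutant jejunum than in ileum. Scd2, a desaturase that puts the double bond into stearate and palmitate, had 10.37, 11.05 and 11.14 in mutant jejunum, 11.91, 11.86 and 12.58 in control ileum, and 8.32, 8.42 and 8.53 in control jejunum. The groups lay far apart, with mutant jejunum between the control segments. Scd2 was 5.39-fold higher in mutant jejunum than in control jejunum (log2 difference 2.43, SE 0.22, 1.94 to 2.92, adjusted p = 0.000175). It was 12.9-fold higher in ileum than in control jejunum (3.69, SE 0.22, 3.20 to 4.19, adjusted p = 3.46e-06). Both calls held in all 21 alternatives, and all 3 Scd2 probe sets were called alike. Mutant jejunum was 2.4-fold lower than ileum (-1.26, -1.76 to -0.77, adjusted p = 0.0169), a call lost when those groups were fitted alone (adjusted p = 0.0524) or without mutant jejunum 1 (adjusted p = 0.0535).

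Scd1, the neighbouring desaturase isoform, had 7.87, 7.95 and 6.13 in mutant jejunum, 7.70, 8.42 and 9.88 in control ileum, and 5.46, 6.92 and 5.90 in control jejunum. Its arrays scattered over more than 1 log2 unit within each group, and mutant jejunum 3 lay within the control jejunum range. Scd1 rose in ileum (2.57, 1.26 to 3.89, adjusted p = 0.0142), a call lost without control jejunum 1 (adjusted p = 0.0516) or control jejunum 3 (adjusted p = 0.0524), and did not pass in mutant jejunum (1.23, -0.09 to 2.54, adjusted p = 0.333). A dimmer Scd1 probe set gave 0.95 in mutant jejunum (adjusted p = 0.0779) and 1.77 in ileum (adjusted p = 0.00114).

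Other members supply and extend the carbon chain. Acly, the ATP citrate lyase that yields cytosolic acetyl-CoA, averaged 9.40 ± 0.24 in mutant jejunum, 9.74 ± 0.09 in control ileum and 8.95 ± 0.06 in control jejunum (SD, n = 3 each). The highest mutant array, at 9.65, lay just below the lowest ileum array, at 9.66, and the lowest mutant array, at 9.18, lay above control jejunum. Acly rose in ileum by 0.79 (adjusted p = 0.00247, and 0.282 with no scaling), with a mutant difference of 0.45 (0.16 to 0.74, adjusted p = 0.1), and 1 of 3 Acly probe sets was not called in ileum. Acaca, the acetyl-CoA carboxylase, had 6.89, 7.55 and 7.09 in mutant jejunum, 7.66, 7.59 and 7.52 in control ileum, and 6.81, 6.88 and 6.97 in control jejunum. Acaca rose in ileum by 0.70 (adjusted p = 0.0166), a call lost with no scaling (adjusted p = 0.349) and narrowly without control ileum 1 or 2 or control jejunum 1 or 2 (adjusted p between 0.0506 and 0.0529). A dimmer Acaca probe set was not called in ileum (0.52, adjusted p = 0.132).

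Fasn, the fatty acid synthase, had 7.74, 8.21 and 8.75 in mutant jejunum, 8.42, 8.44 and 8.93 in control ileum, and 7.81, 8.00 and 7.97 in control jejunum. It was called in neither comparison with control jejunum (0.31, -0.20 to 0.81 in mutant jejunum, and 0.67, 0.16 to 1.18, adjusted p = 0.0722 in ileum). Elovl6, the elongase of palmitate, differed by -0.01 (-0.38 to 0.36) in mutant jejunum and by -0.07 (-0.43 to 0.30) in ileum. Acss2, the acetyl-CoA synthetase, differed by 0.02 (-0.29 to 0.32) in mutant jejunum and by 0.43 (0.13 to 0.74) in ileum and was called in neither. Aacs, which feeds ketone bodies into lipid synthesis, differed by 0.39 (-0.25 to 1.04) in mutant jejunum and by 0.83 (0.18 to 1.48) in ileum, and only a dimmer probe set was called in ileum (1.28, adjusted p = 0.00372). Me1, the malic enzyme that yields NADPH, had 11.01, 10.99 and 8.78 in mutant jejunum, 11.25, 9.85 and 8.59 in control ileum, and 10.27, 9.72 and 9.61 in control jejunum. Its spread within groups, with an SD of 1.28 in mutant jejunum and 1.33 in control ileum, exceeded its differences of 0.39 and 0.03 from control jejunum.

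Other genes of the wider pathway were taken from 4 lists of textbook members, with 38 tested genes in all. Relative to control jejunum, 1 of the 38 rose (2.63%) and 2 fell (5.26%) in mutant jejunum, where 2.1% and 2.29% of all genes did, and 6 rose (15.8%) and 4 fell (10.5%) in ileum, where 8.79% and 9.12% did. Of 7 measured genes of SREBP processing and sterol sensing, 1 fell in mutant jejunum and 1 rose in ileum, each relative to control jejunum. Erlin1, a membrane protein of sterol-regulated degradation, had 9.70, 9.71 and 9.52 in mutant jejunum, 10.06, 10.31 and 9.94 in ileum, and 10.09, 10.34 and 10.31 in control jejunum (mutant difference -0.60, adjusted p = 0.0279). Rnf145, a sterol-regulated ubiquitin ligase, rose in ileum by 0.84 (adjusted p = 0.00969). Of 7 isoprenoid and further sterol genes, Acat1, the mitochondrial acetoacetyl-CoA thiolase, fell in mutant jejunum and in ileum (-0.61, adjusted p = 0.00478, and -0.59, adjusted p = 0.00176). Coq2 of ubiquinone synthesis (0.47, adjusted p = 0.0214) and Fntb, a farnesyl transferase subunit (0.55, adjusted p = 0.0213), rose in ileum, and Fntb was lower in mutant jejunum than in ileum (-0.60, adjusted p = 0.0491).

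Of 14 further lipogenic genes, 1 rose in mutant jejunum, and 3 rose and 2 fell in ileum. Elovl5, an elongase of polyunsaturated fatty acids, had 9.31, 9.45 and 9.45 in mutant jejunum, 9.53, 9.80 and 9.20 in ileum, and 8.32, 8.81 and 8.80 in control jejunum. It rose in mutant jejunum (0.76, adjusted p = 0.0414) and in ileum (0.87, adjusted p = 0.00747). Fads2, the delta-6 desaturase, rose in ileum (0.90, adjusted p = 0.00799), and a dimmer probe set of it was called in mutant jejunum (0.94, adjusted p = 0.0332) where the brightest was not. Higher in ileum too was Mid1ip1, an activator of acetyl-CoA carboxylase (0.68, adjusted p = 0.0359). Mlxipl, the carbohydrate-response factor ChREBP, had 9.32, 9.20 and 9.44 in mutant jejunum, 8.47, 8.46 and 8.37 in ileum, and 9.59, 10.30 and 9.80 in control jejunum. Mlxipl fell in ileum (-1.46, adjusted p = 0.000217) and was higher in mutant jejunum than in ileum (0.89, adjusted p = 0.0217). Pklr, a pyruvate kinase, also fell in ileum (-0.59, adjusted p = 0.0425), where its dimmer probe sets were not called.

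Of 10 sterol transport and LXR genes, limma called none in mutant jejunum relative to control jejunum by its brightest probe set (1 higher and 4 lower at an unadjusted p under 0.05). A dimmer probe set of Scarb1 was called lower there (-1.02, adjusted p = 0.0324), while its brightest gave -0.72 (adjusted p = 0.0711). In ileum Scarb1, the scavenger receptor for lipoproteins, fell by 1.41 (adjusted p = 0.000736), with 5.85, 6.02 and 5.88 in ileum against 7.73, 7.08 and 7.17 in control jejunum. Dimmer probe sets of Npc2, a lysosomal sterol carrier (0.59, adjusted p = 0.0113), and of the lipogenic gene Gpam (0.69, adjusted p = 0.0462) were called higher in ileum where the brightest were not, and 1 dimmer probe set each of Erlin1 and Acat1 was not called in mutant jejunum. None of the 10 sterol transport genes was called between mutant jejunum and ileum (1 higher and 0 lower at an unadjusted p under 0.05). The medians of the 10 genes were -0.29 in mutant jejunum and -0.50 in ileum, each relative to control jejunum, while those of the members were above 0.

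Markers of other cell types moved with some of these comparisons. Smooth muscle markers were higher in ileum than in control jejunum, with 7 of 8 called and summed intensities of 12820 to 16490 in ileum against 6336 to 9383 in control jejunum. The 7 markers of enteric neurons and glia were split in ileum: 4 differences were positive and 3 negative, and the 3 neuronal genes Uchl1, Elavl4 and Snap25 rose. At an unadjusted p under 0.05, 4 of these 7 were higher and 2 lower in ileum, among them the glial gene Sox10 (-0.84, adjusted p = 0.0537). Clps, the pancreatic colipase, rose in ileum relative to control jejunum (2.05, adjusted p = 0.00115) and was the only one of 5 tested acinar markers called. None of the 8 smooth muscle markers was called in mutant jejunum relative to control jejunum by limma (0 in each direction at an unadjusted p under 0.05), and their sum was 5476 to 8454 there. Of 8 epithelial markers, Krt18 rose in mutant jejunum (0.84, adjusted p = 0.00271), and Krt18, Epcam and Cdh1 rose in ileum (0.36 to 1.14). The summed epithelial intensities were 52590 to 57690 in mutant jejunum, 56220 to 58300 in ileum and 50050 to 51980 in control jejunum. Of 11 crypt and cycling markers, limma called none in any comparison. At an unadjusted p under 0.05, 0 were higher and 2 lower in mutant jejunum than in control jejunum. All 11 differences were negative there, with a median of -0.25. In ileum 2 were higher and 1 lower than in control jejunum at that threshold. In mutant jejunum 0 were higher and 3 lower than in ileum. Immune markers were lower in ileum than in control jejunum for 2 of 5 T cell, 2 of 6 B and plasma cell and 2 of 7 myeloid genes, and none of these was called in mutant jejunum relative to control jejunum (0 in each direction at an unadjusted p under 0.05). Of 14 clock genes, Dbp alone was called relative to control jejunum, and it fell in mutant jejunum and in ileum; at an unadjusted p under 0.05, 5 were lower and 0 higher in mutant jejunum, and 2 were lower and 0 higher in ileum. In mutant jejunum relative to ileum, where 4 members fell, 6 of 8 smooth muscle markers fell (8 lower at an unadjusted p under 0.05, median -1.19), as did 4 of 7 neuronal and glial markers and Clps (-1.99, adjusted p = 0.00859). In the same comparison 3 of 5 T cell markers rose. The part of these cells in the results was not tested.

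Fat cell markers stood out on 2 arrays. Adipoq, a hormone of fat cells, had 4.33, 8.65 and 4.27 in mutant jejunum, 4.04, 6.54 and 9.34 in control ileum, and 4.20, 5.09 and 4.10 in control jejunum. Retn, another such hormone, had 4.48, 7.24 and 4.32 in mutant jejunum, 4.26, 5.65 and 7.57 in ileum, and 4.77, 4.49 and 4.29 in control jejunum. Mutant jejunum 2 and control ileum 3 were thus the highest of their groups for both. Summed over the 8 fat cell markers with a probe set, of 10 listed, the intensity ran from 997.6 to 2744 in mutant jejunum, from 794.7 to 3580 in ileum and from 1177 to 1379 in control jejunum, and Lep was dim in every group. Of 7 tested fat markers, limma called none in mutant jejunum relative to control jejunum (0 higher and 1 lower at an unadjusted p under 0.05), and in ileum Plin4 rose and Cidec and Lipe fell.

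Left without those 2 arrays, an alternative chosen after seeing the data, the mutant comparison with control jejunum had 3 members that rose (Sqle, Mylip and Scd2) instead of 7. Over all genes, 119 then rose and 126 fell, against 290 and 317 with all arrays. Scd2 then differed by 2.33 (adjusted p = 0.00118), Mylip by 1.16 (adjusted p = 0.0204) and Sqle by 1.04 (adjusted p = 0.00925). Fdps differed by 0.94 (adjusted p = 0.118), Cyp51 by 0.81 (adjusted p = 0.128), Tm7sf2 by 0.68 (adjusted p = 0.149) and Nsdhl by 0.67 (adjusted p = 0.111). The ileum then had 17 members that rose and 1 that fell, Srebf1. Over all genes, 753 then rose and 822 fell in ileum, against 1216 and 1261 with all arrays. Scd2 stood at 3.46 in ileum (adjusted p = 4.15e-05) and Scd1 at 1.97 (adjusted p = 0.051). Between mutant jejunum and ileum, 1 member, Sqle, then remained lower (-1.01, adjusted p = 0.0269). Over all genes, 95 were then lower in mutant jejunum than in ileum, against 235 with all arrays.

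**Figure D5:**
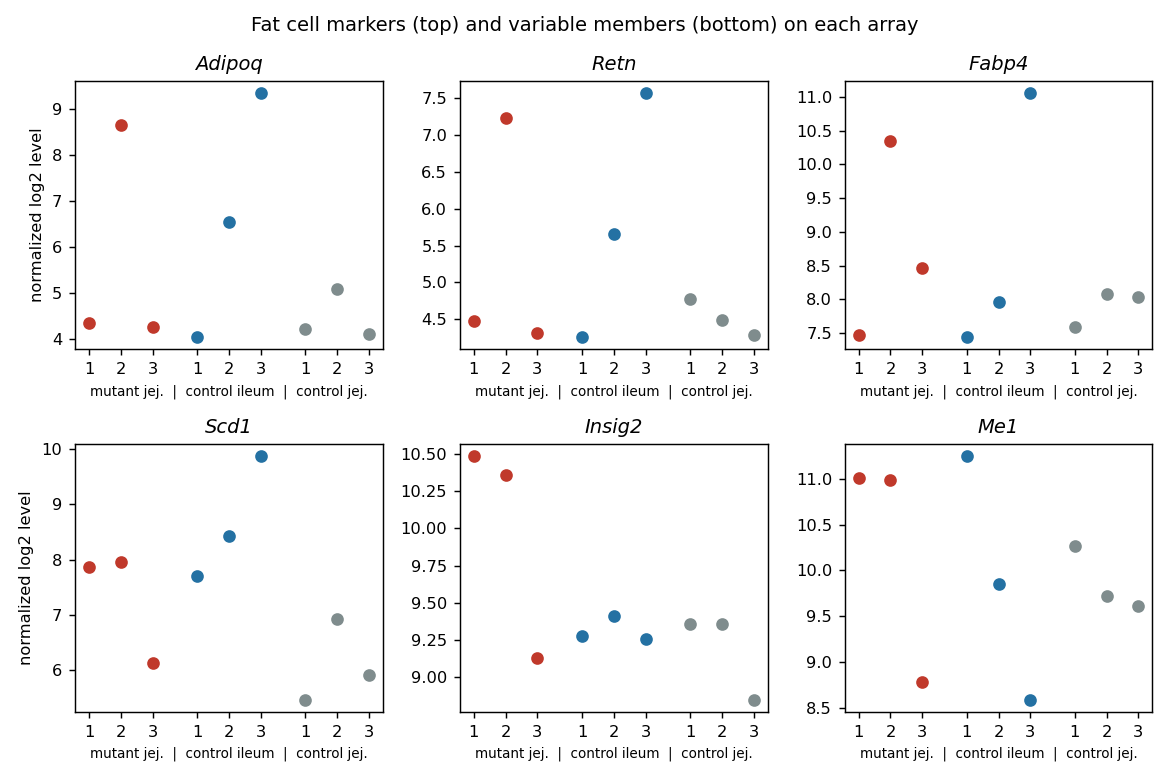
Normalised log2 level on each of the 9 arrays of 3 fat cell markers (top) and of 3 members that varied within groups (bottom), with replicate numbers under the points. Adipoq, Retn and Fabp4 peak on mutant jejunum 2 and control ileum 3, and Scd1 peaks on control ileum 3. Insig2 is high on mutant jejunum 1 and 2, while mutant jejunum 3 lies among the control arrays. Me1 is higher on mutant jejunum 1 and 2 than on 3, and runs from 11.25 on control ileum 1 to 8.59 on control ileum 3.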

How the data were processed

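The authors deposited linear intensities, 1 for each probe set on each array; per the submitters' processing notes these came from GCOS, with version and settings not given in the sources used here. RNA was purified on RNeasy columns and labelled by the Affymetrix procedure, per the labels' protocols. Groups and replicate numbers come from the sample titles. The 64 array controls among the 45101 probe sets were dropped. Values were computed as log2(intensity + 16) and quantile normalised, so a shift of all transcripts could not be seen, and differences of dim probe sets are understated. A probe set was tested where at least 3 of 9 arrays lay above the overall 40th percentile. Tests used limma 3.58.1 (R 4.3.3): lmFit on the 9 arrays, 3 contrasts, eBayes with an intensity trend, and Benjamini-Hochberg adjustment over 29307 probe sets; the script was tested on simulated data. The tested probe set with the highest mean stood for a gene. Genes come from the array annotation (34945 probe sets with 1 gene, 932 with several, 9160 with none; 34741 matched RefSeq by Entrez ID, and no symbol changed). All measured members are named or counted, and other pathway genes where called. Members and lists were chosen with earlier results of these data known. The number of arrays limits the precision. Same-numbered arrays did not deviate together: in none of the 3 pairs of groups did all 3 numbers correlate above 0.1. Scaling, pseudocount, filter, variance model, samples in the fit, replicate block, probe set and each array in turn were varied.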

Additional observations from a re-analysis of the deposited data

How the results depend on the processing

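Called relative to control jejunum, Sqle and Scd2 kept their calls in mutant jejunum under all 21 alternatives, and so did Cyp51, Fdft1, Fdps, Idi1, Lss, Msmo1, Mylip, Nsdhl, Pmvk, Scd2, Sqle and Tm7sf2 in control ileum. The count of 7 members that rose in mutant jejunum relative to control jejunum was 13 with array weights, 2 to 10 when each array was left out in turn, and 3 without the 2 arrays with the highest Adipoq. None fell there, and 1 did (Srebf1) in the fit of the 2 groups alone, with 0 to 1 over the fits without 1 array. In ileum relative to control jejunum, 19 rose, with 17 to 23 over the fits without 1 array, and none fell, against 3 with no scaling, 0 to 1 without 1 array and 1 without the 2 Adipoq arrays. Between mutant jejunum and ileum, the 4 members that fell became 1 with no scaling, 1 with median centring, 2 with no intensity trend, 0 in the fit of the 2 groups alone, 2 with the replicate block, 0 to 4 without 1 array and 1 without the 2 Adipoq arrays. None rose there, against 3 with no scaling, 1 with array weights and 0 to 1 without 1 array, and the members' median of -0.44 turned to 0.10 with no scaling. The replicate block gave 6 members that rose in mutant jejunum and 20 in ileum, each relative to control jejunum, and the numbers do not pair the arrays. With no scaling, 319 genes rose and 4995 fell in ileum relative to control jejunum, against 1216 and 1261 with quantile normalisation, and 4604 rose and 91 fell in mutant jejunum relative to ileum, against 272 and 235. Array weights called 529 genes up and 554 down in mutant jejunum relative to control jejunum, against 290 and 317. Without the 2 Adipoq arrays, 119 genes rose and 126 fell in that comparison. In mutant jejunum relative to ileum, 111 genes rose and 108 fell when those groups were fitted alone. The cause of these changes was not tested, beyond the fewer arrays in the fits that leave some out.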
